A study of Oryza sativa with 51 samples.

Results

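The PYL genes of rice (pyrabactin resistance 1-like, also called RCAR) encode soluble receptors of the stress hormone abscisic acid (ABA). A set of 7 loci was followed, taken by their locus identifiers: PYL1 (LOC_Os10g42280), PYL2 (LOC_Os06g36670), PYL3 (LOC_Os02g13330), PYL4 (LOC_Os01g61210), PYL5 (LOC_Os05g39580), PYL6 (LOC_Os03g18600) and PYL10 (LOC_Os02g15640). They are 7 of the 55986 genes of the RNA tables, and all 7 have a row there. When ABA is bound, a PYL receptor docks onto a clade A protein phosphatase of type 2C (PP2C) and blocks it. The block frees SAPK kinases, the rice members of the SnRK2 family, which then phosphorylate basic leucine zipper (bZIP) factors that switch on ABA-responsive genes. In a leaf this chain closes the stomata and starts the programme of drought protection, and the phosphatases are themselves induced by ABA.

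RNA was measured in the rice line Zhonghua11 at the 4-leaf stage in 3 conditions of 3 libraries each: normal water, a moderate drought with relative soil water near 20%, and a severe drought near 10%. Drought was allowed to develop slowly in paddy soil. The same 3 conditions of Zhonghua11 were profiled by chromatin immunoprecipitation (ChIP) of histone H2B monoubiquitination (H2Bub1), and so were leaves of an osbzip46 mutant and of its wild type under drought and under normal water, with 3 ChIP and 3 input samples per group. The labels give no further allele or line for the mutant, and do not say whether the 3 samples of a group came from separate plants. What the p-values below measure is thus the spread between libraries of a group, and this spread may be technical.

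The labels name no tissue for the RNA. Genes listed as markers of leaf photosynthesis were abundant, with LOC_Os09g17740, listed as the antenna gene CAB1R, at 8803 to 9706 TPM in normal libraries (TPM is the transcript abundance scaled for gene length and library size). Of 4 such markers, 3 fell under moderate and 3 under severe drought (limma adjusted p under 0.05). CAB1R was called in neither, and the others changed by −2.04, −1.77 and −1.83 on the log2 scale under moderate drought. Of 3 root markers, the silicon transporter gene listed as Lsi1 lay at 11.1 to 21.7 TPM over the 9 libraries, the iron transporter gene listed as IRT1 at 0.122 to 1.84 TPM, and Lsi2 at 0 in 8 of them. Of the 2 root markers that could be tested, 2 fell under moderate and 1 under severe drought. Among all genes tested, 18.9% were called lower under moderate and 20.6% under severe drought. The part of the marker shifts in the receptor values was not tested. Severe replicate 3 stood apart: it correlated at 0.955 and 0.944 with the other severe libraries over the tested genes. Any other pair within a group correlated at 0.9885 or more, so values are also given without severe replicate 3.

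In these seedlings the RNA of the 7 genes came almost entirely from PYL10, PYL1 and PYL6, and all 3 fell in both droughts. PYL6 fell most, to 25.1% of its normal level under moderate and 15.5% under severe drought. PYL10 and PYL1 stayed at 61.9% and 69.4% of normal under moderate drought, and at 67.3% and 69.4% under severe drought. PYL2 and PYL3 were near 1 TPM, and PYL4 and PYL5 were close to or at 0. In bulk tissue, fewer cells of a type and less RNA per cell cannot be told apart.

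**Figure D1:**
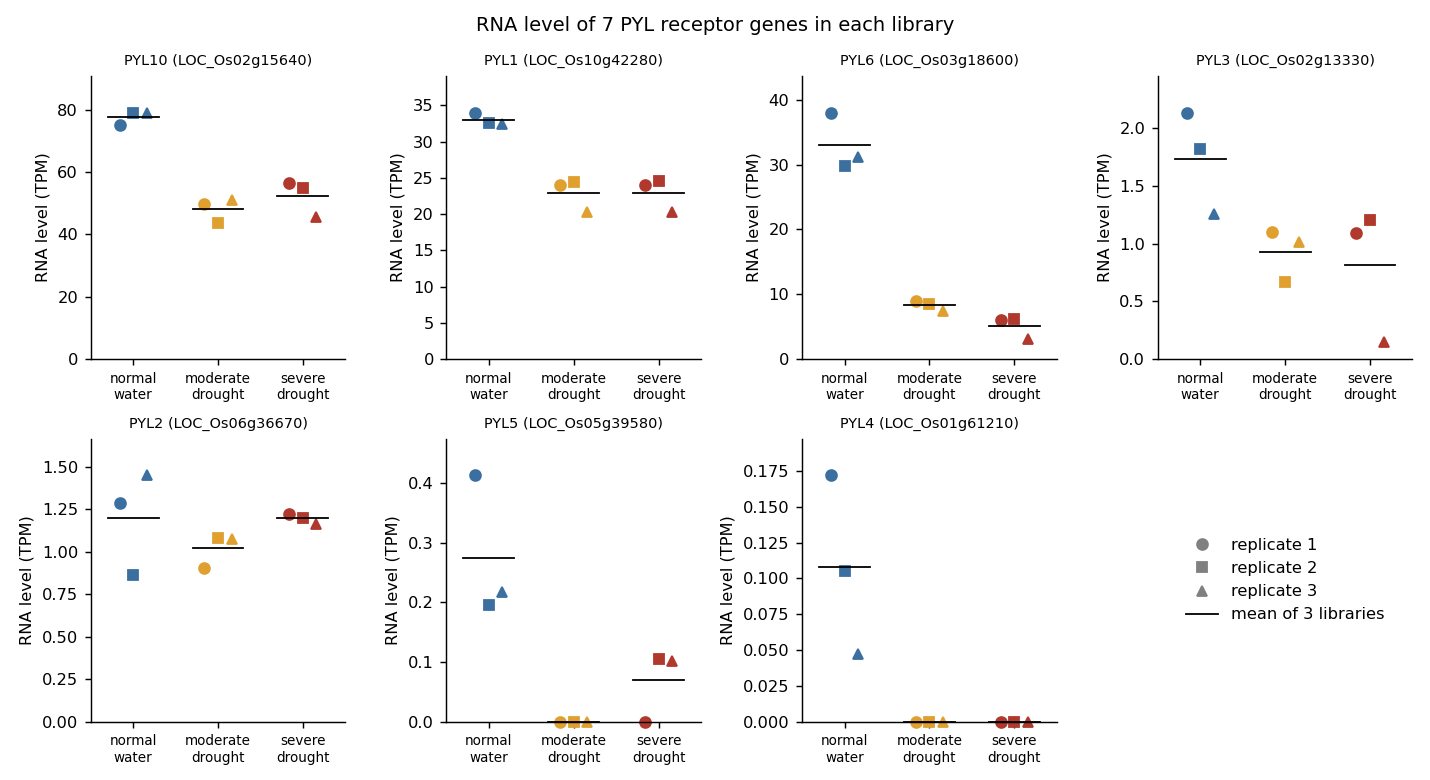
RNA level (TPM, linear axis from 0, a scale of its own in each panel) of the 7 PYL genes in the normal, moderate drought and severe drought conditions. Each symbol is 1 library and the line is the mean of 3. PYL10, PYL1 and PYL6 lie lower in all 6 drought libraries than in any normal library, and PYL4 is listed at 0 in all 6.

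PYL10, whose overexpression has been reported to raise drought tolerance in rice, was the most abundant of the 7 in every library. It had 75.1, 78.9 and 79.0 TPM in normal libraries, 49.8, 43.5 and 51.0 TPM in moderate libraries and 56.6, 54.9 and 45.4 TPM in severe libraries. Every drought library lay below every normal one, and the moderate and severe libraries overlapped. Means were 77.7 ± 2.24, 48.1 ± 4.01 and 52.3 ± 6.01 TPM (SD, n = 3 each) in that order. On the log2(TPM + 1) scale PYL10 changed by −0.68 ± 0.10 (SE) under moderate drought (limma, Benjamini-Hochberg adjusted p = 0.000535 over all genes tested) and by −0.57 ± 0.10 under severe drought (limma adjusted p = 0.00142). Without severe replicate 3 the severe difference was −0.47 (limma adjusted p = 0.000595).

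PYL1, a receptor whose joint inactivation with PYL4 and PYL6 by genome editing has been reported to promote growth of rice, was next. Its levels were 34.0, 32.6 and 32.4 TPM in normal libraries, 24.0, 24.5 and 20.3 TPM in moderate libraries and 24.0, 24.5 and 20.2 TPM in severe libraries. Both drought groups lay wholly below normal, and their library values were nearly the same as each other. Group means were 33.0 ± 0.836, 22.9 ± 2.30 and 22.9 ± 2.34 TPM (SD, n = 3 each). The log2 difference was −0.51 ± 0.10 (SE) in each drought, with limma adjusted p = 0.00239 under moderate and 0.00225 under severe drought. Without severe replicate 3 it was −0.43 under severe drought (limma adjusted p = 0.00179).

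PYL6, the member that fell most, was level with PYL1 under normal water. It had 38.0, 29.8 and 31.2 TPM in normal libraries, 8.95, 8.46 and 7.43 TPM in moderate libraries and 5.98, 6.17 and 3.17 TPM in severe libraries. The 3 conditions did not overlap: severe libraries were lowest, moderate libraries next and normal libraries highest. Means were 33.0 ± 4.42, 8.28 ± 0.775 and 5.11 ± 1.68 TPM (SD, n = 3 each). The log2 difference was −1.87 ± 0.20 (SE) under moderate drought (limma adjusted p = 8.73e-05) and −2.51 ± 0.20 under severe drought (limma adjusted p = 1.80e-05), and −2.26 without severe replicate 3 (limma adjusted p = 3.10e-07). Counted from the most negative of 20642 fold changes, PYL6 was number 400 under moderate drought and number 172 under severe drought.

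PYL3, a receptor of low level here, had 2.13, 1.82 and 1.25 TPM in normal libraries, 1.10, 0.671 and 1.01 TPM in moderate libraries and 1.09, 1.20 and 0.150 TPM in severe libraries. All 6 drought libraries lay below the lowest normal library, and severe replicate 3 was far below the other 5. The log2 difference of −0.50 ± 0.25 (SE) under moderate drought did not pass the threshold of 0.05 (limma adjusted p = 0.117), nor did −0.64 ± 0.25 under severe drought (limma adjusted p = 0.0510). Without severe replicate 3, whose spread enters the shared error, the moderate difference passed (limma adjusted p = 0.0121), while the severe one was −0.34 (limma adjusted p = 0.0943).

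PYL2, a rice receptor whose structure in complex with a phosphatase has been solved, had 1.28, 0.864 and 1.45 TPM in normal libraries. Moderate libraries had 0.903, 1.08 and 1.08 TPM, and severe libraries 1.22, 1.20 and 1.17 TPM. Each drought group lay within the range of the normal libraries. The log2 difference under moderate drought was −0.11 with a 95% interval of −0.38 to 0.16 (limma adjusted p = 0.439), and under severe drought it was 0.01 with an interval of −0.26 to 0.28 (limma adjusted p = 0.962). At such levels, adding 1 TPM before the logarithm shrinks fold changes.

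PYL4 and PYL5 were at the floor of the measurement. PYL4 had 0.172, 0.105 and 0.0472 TPM in normal libraries and was listed at 0 in all 3 moderate and all 3 severe libraries. PYL5 had 0.413, 0.195 and 0.217 TPM in normal libraries, was listed at 0 in the 3 moderate libraries, and had 0, 0.105 and 0.102 TPM in severe libraries. The deposited read coverage behind the normal values was 0.309 to 1.10 per base for PYL4 and 1.01 to 2.64 for PYL5, against 154 to 243 for PYL6. Both failed the filter of at least 1 TPM in at least 3 libraries, and no fold is given against groups listed at 0.

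Under normal water the order of levels was thus PYL10, then PYL1 with PYL6, then PYL3 with PYL2, then PYL5, then PYL4. The ranges of PYL1 and PYL6 overlapped there, as did those of PYL3 and PYL2. Under both droughts PYL6 dropped wholly below PYL1, while PYL3 and PYL2 still overlapped.

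**Figure D2:**
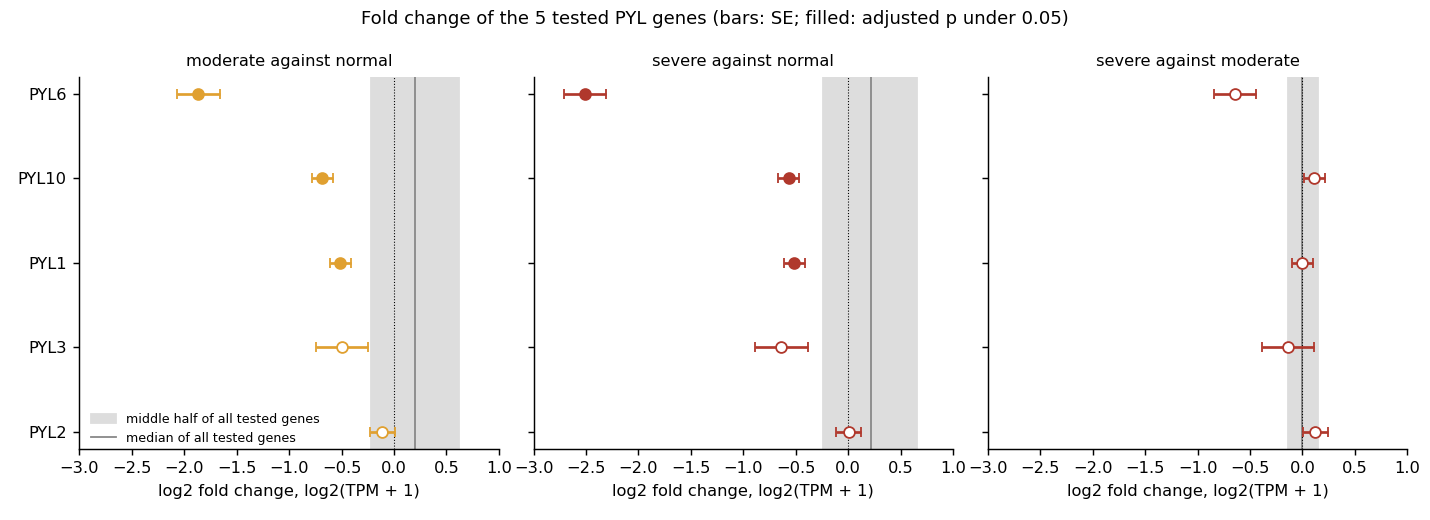
Log2 fold change with its SE (horizontal axis, log2(TPM + 1) scale) of the 5 tested PYL genes for moderate against normal, severe against normal and severe against moderate. Grey bands run between the quartiles of all 20642 tested genes and the grey line is their median. PYL6, PYL10 and PYL1 are filled (adjusted p under 0.05) and left of the band in both drought panels, and no gene is filled in the third.

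Of the 7 members 5 could be tested, and 3 of those fell under moderate drought and 3 under severe drought, with none higher. Of all 20642 genes tested, 18.9% were called lower under moderate drought and 20.6% under severe drought. Calls in either direction reached 58.3% and 62.7%. Among the 5 tested members, 4 had all libraries of each drought below every normal library (PYL1, PYL3, PYL6 and PYL10). That held for 24.7% of all genes tested under moderate and 23.3% under severe drought. PYL4 and PYL5, which failed the filter, also lay wholly below normal, at the floor of the measurement. The median log2 difference of the 5 members was −0.51 under moderate and −0.57 under severe drought, and that of all genes tested 0.20 and 0.22. Relative to the median gene, PYL6 stood at −2.07, PYL10 at −0.88 and PYL1 at −0.71 under moderate drought. Fewer calls went upward when the libraries were rescaled to a common centre: 8133 higher and 3907 lower calls under moderate drought became 5690 and 5780 after quantile normalization, and 8687 and 4255 under severe drought became 5909 and 6317. PYL1, PYL6 and PYL10 were called lower under either scaling.

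Severe against moderate drought gave no call among the 5 tested members by limma at adjusted p under 0.05, where 0.0145% of all genes were called. At an unadjusted limma p under 0.05 there was 1 of 5, PYL6, beside 2582 of all 20642 genes tested. The log2 difference of PYL6 was −0.64 ± 0.20 (SE, limma adjusted p = 0.324). All 3 severe libraries of PYL6 lay below all 3 moderate ones, as did those of 10.8% of all genes tested. Without severe replicate 3 the PYL6 difference was −0.39 (limma adjusted p = 0.216). PYL2 lay higher in every severe library than in any moderate one, as did 9.55% of all genes tested. Its log2 difference was 0.12 (limma adjusted p = 0.658). PYL10 differed by 0.11 (interval −0.12 to 0.35), PYL1 by −0.00 (−0.23 to 0.23) and PYL3 by −0.14 (−0.71 to 0.43).

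Within the 7 genes, the share of PYL6 was lower under drought. Summed over the 7 genes, the level averaged 147 ± 3.61 TPM in normal libraries, 81.3 ± 3.35 TPM in moderate libraries and 82.4 ± 10.5 TPM in severe libraries (SD, n = 3 each). PYL6 made up 22.4% ± 2.43, 10.2% ± 0.866 and 6.08% ± 1.37 of that sum. The share of PYL10 was 52.9% ± 2.77, 59.2% ± 3.74 and 63.5% ± 1.17, and that of PYL1 was 22.5% ± 0.165, 28.2% ± 3.08 and 27.9% ± 0.886 (SD, n = 3 each). The other 4 genes together held a few percent in every library.

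**Figure D3:**
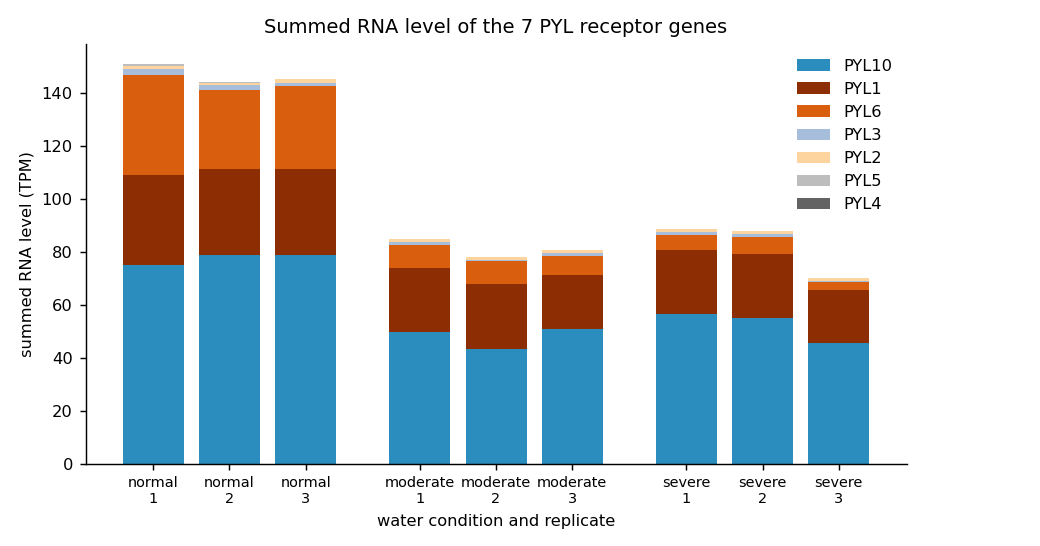
Summed RNA level (TPM) of the 7 PYL genes in each of the 9 libraries, stacked by gene. The sum lies between 144 and 151 TPM in normal libraries, between 78.2 and 84.8 TPM in moderate libraries and between 70.2 and 88.9 TPM in severe libraries. The PYL6 segment has the largest fall relative to its normal height, while under moderate drought the PYL10 segment loses more TPM.

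The ratio of PYL6 to PYL10 within a library, chosen after the values were seen, was 0.506, 0.377 and 0.394 in normal libraries, 0.180, 0.194 and 0.146 in moderate libraries and 0.106, 0.112 and 0.0698 in severe libraries. No 2 conditions overlapped. An exact permutation test of 3 libraries against 3 cannot go below p = 0.1, so none is used for these ratios. The 95% interval of the PYL6 log2 difference under moderate drought, −2.33 to −1.40, lay wholly below that of PYL10, −0.92 to −0.45. Both come from the same libraries, and neither is an interval for the difference between these genes, so this is no test of it. The ratio of PYL1 to PYL10 averaged 0.426 ± 0.0234 in normal libraries, 0.481 ± 0.0820 in moderate libraries and 0.439 ± 0.0122 in severe libraries (SD, n = 3 each), with overlapping libraries.

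Further loci listed as PYL family members were near 0 except 1. LOC_Os05g12260, listed as PYL11, had 66.0, 70.7 and 75.9 TPM in normal libraries, 78.8, 73.5 and 72.7 TPM in moderate libraries and 80.1, 75.9 and 139.7 TPM in severe libraries. Its range overlapped that of PYL10 under normal water. In both droughts it lay wholly above PYL10, which had 43.5 to 51.0 TPM in moderate and 45.4 to 56.6 TPM in severe libraries. Severe replicate 3 of this locus stood far above the rest. Its moderate group overlapped both others, while normal and severe barely met (normal maximum 75.9069 TPM, severe minimum 75.9068 TPM). Its log2 difference was 0.08 ± 0.20 (SE) under moderate drought (limma adjusted p = 0.753; −0.11 after quantile normalization) and 0.42 ± 0.20 under severe drought (limma adjusted p = 0.105). Without severe replicate 3 the severe value was 0.14, and without severe replicate 2 it passed the threshold at 0.57 (limma adjusted p = 0.0393). With this locus added, a sum chosen after the values were seen, the receptor level was 218 ± 3.29 TPM in normal libraries, 156 ± 6.46 TPM in moderate libraries and 181 ± 25.2 TPM in severe libraries (SD, n = 3 each). That is 71.7% of normal under moderate and 83.1% under severe drought, against 55.3% and 56.0% for the 7 genes alone. The severe mean of this larger sum leans on severe replicate 3, at 210 TPM against 169 and 164 TPM in the other severe libraries. The loci listed as PYL7 and PYL8 were at 0 in every library, PYL9 and PYL12 reached at most 0.0845 and 0.207 TPM, and PYL13 lay between 0.110 and 0.406 TPM. Names of rice receptors differ between sources, and the RefSeq gene table used here gives both PYL5 and PYL11 as names of 1 gene on chromosome 5, so the locus identifiers govern.

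Downstream of the receptors, the phosphatase genes moved the other way. The list holds 10 clade A PP2C genes, of which 9 have a row in the RNA tables and were tested. Of those 9, 8 rose and 0 fell under moderate drought, and the same numbers held under severe drought. Their median log2 differences were 1.91 under moderate and 1.96 under severe drought. After median-of-ratios scaling 7 were called higher in each drought. Genes called higher made up 39.4% of all genes tested under moderate and 42.1% under severe drought. LOC_Os05g49730, listed as PP2C51, had 0.595, 0.427 and 0.937 TPM in normal libraries, 49.5, 52.4 and 46.2 TPM in moderate libraries and 61.7, 45.8 and 127.8 TPM in severe libraries. Its log2 difference was 4.94 ± 0.32 (SE; limma adjusted p = 6.42e-06) under moderate and 5.46 ± 0.32 (limma adjusted p = 4.10e-06) under severe drought. LOC_Os09g15670, listed as PP2C68, rose by 3.58 ± 0.30 on the log2 scale under moderate drought (limma adjusted p = 2.24e-05). Over the 9 genes the phosphatase level summed to 328 ± 36.6 TPM in normal libraries, 1220 ± 38.9 TPM in moderate libraries and 1316 ± 257 TPM in severe libraries (SD, n = 3 each). Per TPM of the 7 receptors there were 2.24 ± 0.287 TPM of these phosphatases in normal libraries, 15.0 ± 0.548 TPM in moderate libraries and 16.4 ± 5.62 TPM in severe libraries (SD, n = 3 each). Severe replicate 3 alone reached 22.9, with 13.5 and 12.9 in the other severe libraries. With LOC_Os05g12260 counted among the receptors the ratio was 1.51 ± 0.151 in normal libraries, 7.81 ± 0.219 in moderate libraries and 7.23 ± 0.391 in severe libraries (SD, n = 3 each).

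**Figure D4:**
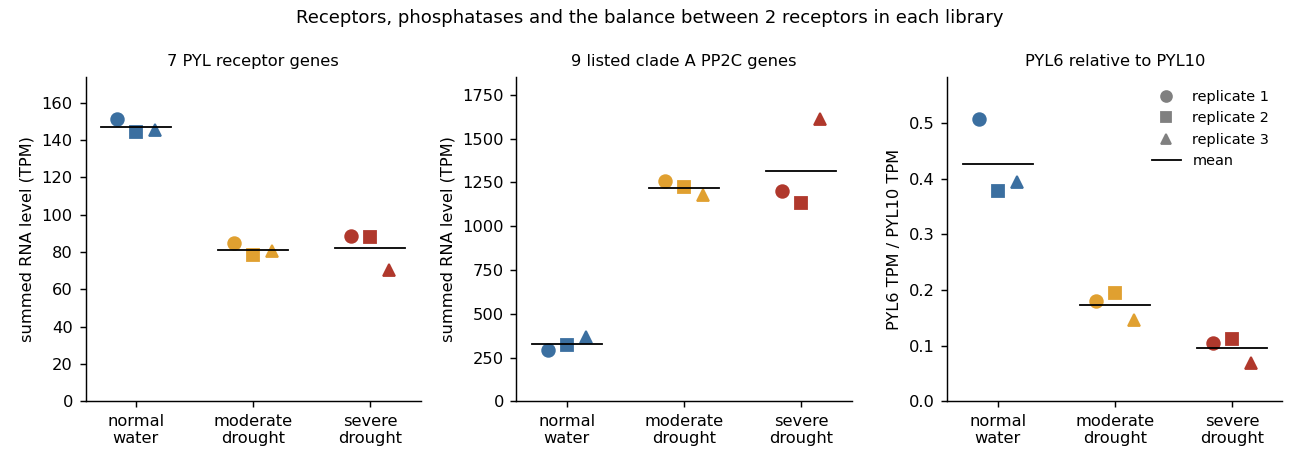
Summed RNA level (TPM) of the 7 PYL genes (left) and of 9 listed clade A PP2C genes (middle), and PYL6 TPM divided by PYL10 TPM (right), in the normal, moderate drought and severe drought conditions. Each symbol is 1 library and the line is the mean. Drought libraries are lower than normal ones on the left and on the right, and higher in the middle.

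Among 10 SAPK kinase genes, 4 rose, 4 fell and 2 did not pass under moderate drought, and the same counts held under severe drought, with median log2 differences of −0.16 and 0.12. Those 4 of 10 are close to the 39.4% and 42.1% of all genes called higher, while 18.9% and 20.6% of all genes were called lower. After quantile normalization 3 rose and 5 fell under moderate drought, and 4 and 5 under severe drought. LOC_Os10g41490, listed as SAPK3, rose by 2.44 ± 0.08 on the log2 scale under moderate drought (limma adjusted p = 4.73e-07). LOC_Os12g39630, listed as SAPK9, fell by 2.08 ± 0.39 (limma adjusted p = 0.00183). The kinase sum was 524 ± 41.4 TPM in normal libraries, 533 ± 27.7 TPM in moderate libraries and 634 ± 153 TPM in severe libraries (SD, n = 3 each). Of 5 tested genes for ABA-responsive bZIP factors, 5 rose under moderate and 4 under severe drought, and 3 in each drought with either rescaling of the libraries (quantile or median-of-ratios). LOC_Os02g52780, listed as bZIP23, rose by 2.56 ± 0.16 (limma adjusted p = 5.50e-06) and LOC_Os01g64730, listed as ABF1, by 2.24 ± 0.25 (limma adjusted p = 1.00e-04) on the log2 scale under moderate drought. No gene of the 3 lists was called between severe and moderate drought by limma, where 3 of all 20642 genes tested were called. At an unadjusted limma p under 0.05 there were 0 of 24, beside 2582 of all 20642 genes.

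The genes whose profiles over the 9 libraries were most like that of PYL6 were LOC_Os02g03710 (Pearson's r = 0.998 of log2(TPM + 1)) and LOC_Os02g52270 (r = 0.995), and both fell in both droughts. The 2 most alike genes of PYL1, PYL3 and PYL10 had r of 0.988 to 0.993. For PYL2 they reached 0.883 and 0.834. Between the members themselves, PYL1 and PYL6 correlated at 0.946, PYL1 and PYL10 at 0.898 and PYL6 and PYL10 at 0.891. These values describe 9 libraries that share 3 conditions, so any genes that differ between normal water and drought correlate. The RNA files and the RefSeq table do not pair these identifiers with names.

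H2Bub1 is a single ubiquitin on histone H2B, found mainly over the bodies of transcribed genes. In the authors' deposited table of moderate drought against normal water, 1 of the 7 members had a listed region, PYL10. The region of 500 bases lay on chromosome 2 from 8803401 to 8803900, which is 2076 bases downstream of the start of the PYL10 gene (8801325 to 8805453, plus strand) and so inside it. The authors' deposited table annotates it as promoter at 2 to 3 kb. Its log2 concentration in the authors' deposited table was 6.05 under moderate drought and 7.30 under normal water, a log2 fold change of −1.25 (p = 2.66e-07, false discovery rate 1.08e-05). In that table it ranks 646 among 1171 lower regions by the size of the fold, near their median of −1.30. Genes with a lower region in the same table were 1.99% of all genes, and 6.11% of the genes past the RNA filter had a region in either direction.

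**Figure D5:**
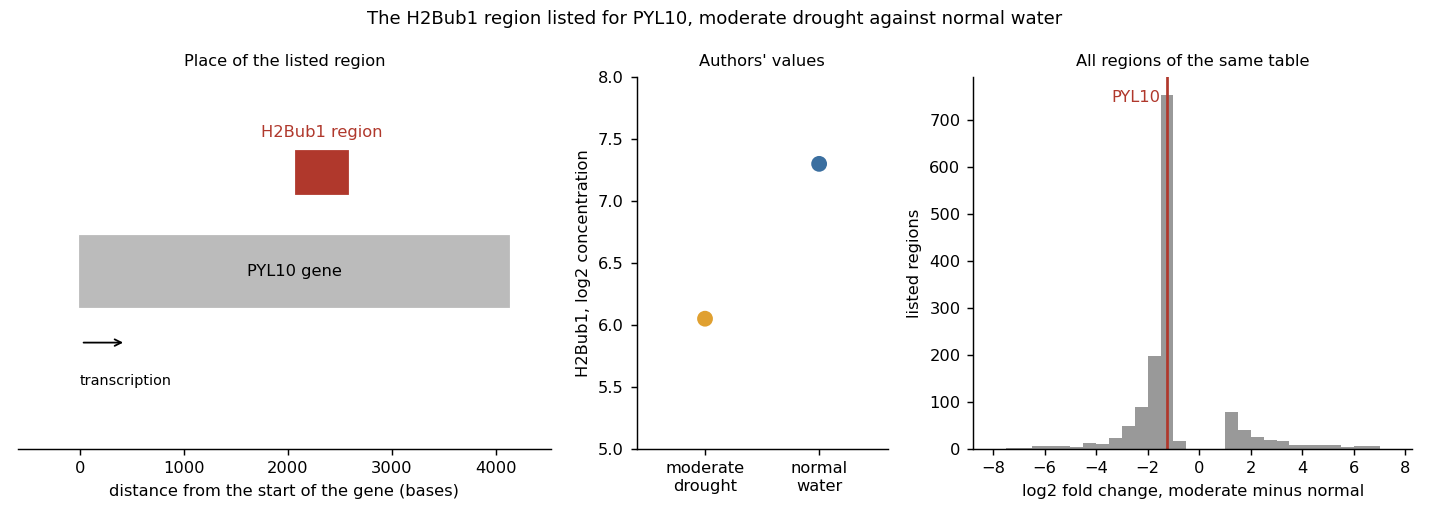
The H2Bub1 region that the authors' deposited table lists for PYL10. Left, its place as distance in bases from the start of the gene; middle, the authors' log2 concentration, 6.05 under moderate drought and 7.30 under normal water; right, the number of listed regions by log2 fold change, with PYL10 at −1.25 among 1171 lower regions.

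No other member had a region in that table, and no member had one in the authors' deposited table of severe drought against normal water (886 regions) or of the osbzip46 mutant against wild type under drought (522 regions). Regions in either direction belonged to 869 distinct genes in the severe table and 510 in the mutant table, beside 55986 genes in the RNA tables. Most mutant regions were higher (432 higher, 90 lower). Counting lower regions only, the genes were 1.39% of all genes in the severe table and 0.161% in the mutant table. The mutant regions reached a false discovery rate of 0.975, and 3 of the 522 were under 0.01. The mutant's table of genes, with 1265 genes beside the 55986 of the RNA tables, also held none of the 7. The moderate and severe tables hold only regions with a false discovery rate under 0.05, so a member that is missing there has no value, and no difference between the droughts in PYL10 is shown. PYL10 RNA was lower in both droughts while its region was listed for moderate drought alone, and PYL6, with the larger fall in RNA, had no listed region. Whether the mark and the RNA are linked was not tested.

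The 7 gene models stand apart from their neighbours. None overlaps another gene, the nearest gene lies 3449 bases away (beside PYL4), and the models span 624 bases (PYL3) to 4129 bases (PYL10). PYL1 lies on chromosome 10 (22766466 to 22767104, plus strand), PYL6 on chromosome 3 (10418634 to 10419919, minus strand) and PYL3 on chromosome 2 (7111106 to 7111729, minus strand). The labels and headers name no genome build for these coordinates. Members of a gene family share sequence, and how reads that match several of them were counted is not stated, so low values of PYL4 and PYL5 in particular are uncertain.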

How the data were processed

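RNA was measured in 9 libraries and H2Bub1 in 21 ChIP and 21 input samples. TPM, FPKM and read coverage per gene are the authors' deposited values, per the file headers, and each library's TPM sums to 1000000. Library depth is therefore unknown beyond that coverage. The deposited H2Bub1 tables hold the authors' log2 concentrations, log2 fold changes, p-values and false discovery rates per region. The submitters' processing notes name HISAT2 2.0.5, DESeq2 1.20.0, Bowtie2 2.3.4 and MACS2 2.1.1, with no role given; build and annotation are not given in the sources used here.

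Here log2(TPM + 1) was fitted, for genes that reached 1 TPM in 3 or more libraries, by limma 3.58.1 (R 4.3.3) over all 9 libraries, with trend and robust empirical Bayes and Benjamini-Hochberg adjustment, tested on simulated data. A gene identifier on more than 1 row of a library was summed. Alternatives changed the pseudocount, filter, scaling, unit, libraries and replicate block. Named were all members, up to 2 genes per pathway list with the largest called change under moderate drought, the other PYL loci and the genes most alike. Members and lists (PP2C, SAPK, bZIP, other PYL, leaf and root markers) and their names were chosen with earlier results of these data known. No sequences were used.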

Additional observations from a re-analysis of the deposited data

How the results depend on the processing

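PYL1, PYL6 and PYL10 were called lower against normal water in both droughts under all 18 alternatives, with log2 differences between −0.73 and −0.43 for PYL1, −2.08 and −1.76 for PYL6 and −0.91 and −0.61 for PYL10 under moderate drought. Without a filter on low values, 5 of 7 members were called lower in each drought, PYL4 and PYL5 among them, since both then enter the fit with values listed at 0. Of all 39032 genes in that fit, 4460 were called lower under moderate and 4881 under severe drought. PYL3 passed under 3 alternatives for moderate drought and under 7 for severe drought, among them quantile normalization (adjusted p of 0.0372 and 0.0210 by limma). PYL2 was called under none of its 16 alternatives, and has no value in FPKM or with the filter at 5 TPM, where it falls below the filter. Whether the replicate numbers pair the samples is not known. Same-numbered libraries correlated between −0.257 and 0.143 in their deviations from group means. Without differently numbered pairs beside them, these values cannot decide it. With the replicate block, 3 members were called under moderate drought, 4 under severe drought and 0 between the droughts. Of all 20642 genes in that fit, 11781 were called in either direction under moderate and 12681 under severe drought. Leaving out 1 library at a time gave 3 to 4 members called in each drought, 0 between them, and 18 to 22 pathway genes in each drought. Of all genes, 20207 to 20570 in those fits, 9774 to 14259 were called in either direction under moderate drought. Under severe drought 10639 to 13745 were called. Rescaling ended some of the pathway calls: 17 higher and 4 lower under moderate drought became 14 and 5 after quantile normalization and 13 and 5 after median-of-ratios scaling, and 16 and 4 under severe drought became 14 and 5 under either. Over all genes, severe against moderate drought gave 3 calls, and 1 each without a filter, with median-of-ratios scaling, with plain empirical Bayes and with the replicate block. Leaving out 1 library gave 1 to 10, the 10 without severe replicate 3. The cause was not tested. Depth is unknown in TPM, so no counting error could be given for PYL4 and PYL5. The planned search of member promoters for motifs was not run.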
